A study of Mus musculus with 13 samples.

Results

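DNA repair and damage checkpoint genes were examined in mouse medulloblastoma and in 2 normal hindbrain tissues. The set holds 33 genes in 5 pathways, taken by gene symbol and not by their values. They are represented by 80 of the 45101 probe sets on the array, against 18193 genes with a symbol of their own on the whole array. Of the 33 genes, 32 had a probe set bright enough to test, among 12270 genes tested in all; Bard1, the partner of Brca1 in a ubiquitin ligase, was the exception.

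The 13 samples were untreated tissues, each hybridised once. The 6 tumours were primary medulloblastomas from Ptch1(+/-) mice, which carry 1 inactivated copy of the gene for the Sonic hedgehog receptor. The 3 GNPC samples were granule neuron precursors from wildtype cerebellum at postnatal day 7, and the 4 DBS samples were wildtype dorsal brainstem at E16.5. Age and tissue differ between all groups, and genotype between the tumours and both normal tissues, so their shares in a difference cannot be told apart. The labels name no batch, and a batch that coincided with a group could not be told apart from it. Samples are numbered within a group for reference only. By the study design each sample came from its own mouse, and all members were read from the same 13 arrays.

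DNA breaks are repaired by homologous recombination, which copies the sister chromatid after DNA replication, or by end joining, which ligates the ends directly and works in non-dividing cells too. Mismatch repair corrects replication errors, excision repair removes damaged or wrong bases, and the kinases Atm and Atr with their effectors Chek2 and Chek1 hold the cell cycle while repair proceeds. Granule neuron precursors of the early postnatal cerebellum divide rapidly under Sonic hedgehog, and loss of repair factors in them is known to give medulloblastoma in mice, mostly when Trp53 is also lost.

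The arrays were scaled by the depositors to a trimmed mean of 500, with medians between 91.3 and 117.5 intensity units. The number of arrays limits the precision. The mean log2 intensity of 8 granule precursor markers was 11.66 to 11.89 in the tumours, 10.75 to 11.03 in GNPC and 8.47 to 8.73 in DBS. These 8 split in tumours against GNPC: 4 had a difference above 0, and 3 were called higher and 0 lower. Atoh1 averaged 8637 in tumours and 1048 in GNPC, whereas Neurod1 averaged 10471 and 16103. The mean of 6 dorsal brainstem markers was 11.34 to 11.78 in DBS, against 5.44 to 5.66 in GNPC and 4.59 to 5.09 in the tumours. The samples were mixtures. Purkinje cell markers, 6 in number, averaged 12.37 to 12.71 in GNPC, 6.74 to 10.57 in the tumours and 9.58 to 9.86 in DBS. In bulk tissue, fewer cells of a type and less RNA per cell cannot be told apart.

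Differences are given on the log2(intensity + 18) scale with the standard error from 1 limma fit over all 12270 genes, and folds are on that scale. A gene was called when its Benjamini-Hochberg adjusted p was below 0.05 and the difference was at least 2-fold. In tumours against GNPC, 11 of the 32 tested members were called higher and 0 lower. Of all genes tested, 6.59% were called higher and 14.2% lower there. In tumours against DBS, 19 members were called higher and 1 lower, where 15.5% of all genes were called higher and 20.9% lower. In GNPC against DBS, 8 members were called higher and 1 lower, where 8.73% of all genes were called higher and 9.68% lower. Without the fold minimum, 23, 26 and 18 members were higher and 0, 1 and 2 lower at an adjusted p below 0.05. Of all genes, 22.8%, 34.9% and 23.1% passed that threshold as higher in these comparisons, and 26.6%, 35.5% and 21% as lower. The sample values of 24, 25 and 21 members lay entirely higher in the first group of a comparison, where 21%, 27.2% and 28.6% of all genes did so. Those of 0, 1 and 2 members lay entirely lower, where 24%, 28.9% and 27.3% of all genes did so. The median member differed by 0.77, 1.29 and 0.48 in these 3 comparisons, against -0.03, 0.00 and 0.04 for all genes. The tumours are used in 2 of the comparisons and each normal tissue in 2, so the 3 counts are not independent.

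Scaling bears on the tumours against GNPC comparison. Of all genes called there, 31.7% were higher, and 48.8% were higher when every array was scaled to the same median. That scaling moved the median of all genes from -0.03 to 0.21 in this comparison and from 0.00 to 0.12 in tumours against DBS. It raised the count of members called higher in tumours against GNPC to 16, adding Brca2, Ercc1, Rad50, Xrcc1 and Xrcc6, with none called lower.

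Promoters are shown first, because many members were called higher in the tumours and some of them hold a short motif that is known from genes of the dividing cell. RefSeq promoters on GRCm38.p6 were matched for 27 of the 33 members by symbol, and the 250 bases before the start site were searched on both strands. The 6 sequences below are written in the direction of the gene. Capitals mark the E2F motif TTTCCCGC, which reads GCGGGAAA on the other strand, and the CCAAT box, which reads ATTGG. Brca2, Chek2 and Xrcc6 were chosen because they are called members that hold the E2F motif. Brca1 and Rad54l were called higher in all 3 comparisons and hold the CCAAT box alone. Ercc2 was flat across the 3 tissues and holds the CCAAT box 3 times.
Brca2, chr5:150522371-150522620, plus strand: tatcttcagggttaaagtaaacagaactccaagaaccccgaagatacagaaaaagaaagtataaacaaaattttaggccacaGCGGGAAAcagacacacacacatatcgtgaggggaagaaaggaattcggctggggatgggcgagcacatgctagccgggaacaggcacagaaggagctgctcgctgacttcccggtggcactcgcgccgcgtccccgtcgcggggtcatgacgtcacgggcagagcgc
Chek2, chr5:110839733-110839982, plus strand: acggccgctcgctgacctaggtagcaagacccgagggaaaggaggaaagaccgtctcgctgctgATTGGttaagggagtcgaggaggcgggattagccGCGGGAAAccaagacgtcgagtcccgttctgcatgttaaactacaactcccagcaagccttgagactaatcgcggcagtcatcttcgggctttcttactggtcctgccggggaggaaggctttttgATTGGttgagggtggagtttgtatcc
Xrcc6, chr15:82016119-82016368, plus strand: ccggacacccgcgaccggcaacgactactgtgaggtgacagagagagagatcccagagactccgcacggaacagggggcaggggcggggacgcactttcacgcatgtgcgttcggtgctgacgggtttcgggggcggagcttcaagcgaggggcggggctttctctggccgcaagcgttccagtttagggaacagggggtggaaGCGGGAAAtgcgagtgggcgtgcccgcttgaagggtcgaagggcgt
Brca1, chr11:101551956-101552205, minus strand: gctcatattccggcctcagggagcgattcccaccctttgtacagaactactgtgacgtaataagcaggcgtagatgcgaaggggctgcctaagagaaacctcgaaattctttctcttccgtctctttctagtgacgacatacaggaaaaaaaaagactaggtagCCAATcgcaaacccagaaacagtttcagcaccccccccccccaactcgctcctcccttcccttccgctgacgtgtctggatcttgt
Rad54l, chr4:116123691-116123940, minus strand: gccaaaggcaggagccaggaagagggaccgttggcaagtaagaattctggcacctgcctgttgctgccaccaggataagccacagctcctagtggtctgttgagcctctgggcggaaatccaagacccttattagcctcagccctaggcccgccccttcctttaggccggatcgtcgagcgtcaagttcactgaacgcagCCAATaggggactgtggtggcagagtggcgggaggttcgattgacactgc
Ercc2, chr7:19381767-19382016, plus strand: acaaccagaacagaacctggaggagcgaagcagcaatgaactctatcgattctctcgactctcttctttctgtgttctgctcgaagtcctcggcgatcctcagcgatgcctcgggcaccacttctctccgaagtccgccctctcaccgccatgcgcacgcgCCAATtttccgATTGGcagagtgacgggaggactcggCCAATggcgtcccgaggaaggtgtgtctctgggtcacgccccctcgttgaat

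The E2F motif TTTCCCGC lay 168 to 161 bases before the start of Brca2, 152 to 145 before that of Chek2 and 46 to 39 before that of Xrcc6, each time on the opposite strand. With Bard1, 4 of the 27 member promoters held it, or 14.8%, against 1.03% of the promoters of 27025 genes. Msh3 held the other E2F forms searched, TTTGGCGC and TTTCGCGC, which overlap there. Any of the 3 forms was in 5 member promoters, or 18.5%, against 1.78% of all. CCAAT was in 14 member promoters, or 51.9%, against 37.5% of all. The cell cycle homology motifs TTTGAA, in Bard1, and TTTAAA, in Lig4, Xpa and Xrcc5, were found in 18.3% and 13.7% of all promoters. Member promoters had a median GC content of 58.4%, against 52.4% for all. Ung, Brca1 and Rad54l rose without an E2F form in this window, and Msh3 held 2 of them without being called in any comparison. A match is a description of letters, not of binding.

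Homologous recombination and Fanconi genes were higher in the tumours than in both normal tissues. Of the 10 tested, 6 were called higher in tumours against GNPC with a median of 1.08, 9 in tumours against DBS with a median of 1.95, and 4 in GNPC against DBS with a median of 0.93, and 0 were called lower. All 10 passed the adjusted p threshold in both tumour comparisons, where 22.8% and 34.9% of all genes passed it as higher.

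Brca1, which loads the recombinase at resected breaks, read 1753, 2216 and 2401 in the lowest, median and highest of the 6 tumours. It read 832, 802 and 1077 in the GNPC samples and 201, 197, 231 and 251 in the DBS samples. The 3 groups did not overlap, and every tumour lay above every GNPC sample, which in turn lay above every DBS sample. The mean was 2154 ± 258 (SD, n = 6) in tumours, 904 ± 151 (n = 3) in GNPC and 219.9 ± 25.5 (n = 4) in DBS. The tumours were 2.36-fold higher than GNPC, a difference of 1.24 ± 0.14 (SE) with a limma adjusted p of 7.71e-06. They were 9.11-fold higher than DBS, with a limma adjusted p of 4.47e-11, and GNPC was 3.86-fold higher than DBS, with one of 2.58e-07. A dimmer probe set of Brca1 was not called in any comparison, at 0.28, 0.81 and 0.54, while the other dim ones had the direction of the brightest. With the mean of all Brca1 probe sets, the tumour difference from GNPC was 0.85 and that call was lost.

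Rad54l, a motor protein that helps the recombinase invade the sister strand, followed the same order. It read 1114, 1371 and 1684 at the lowest, median and highest tumour, then 482, 683 and 569 in GNPC and 109, 92.5, 127 and 117 in DBS. No tumour reached down to a GNPC sample, and no GNPC sample reached down to a DBS sample. The differences were 1.24 ± 0.15, 3.44 ± 0.14 and 2.20 ± 0.16 in tumours against GNPC, tumours against DBS and GNPC against DBS, with limma adjusted p of 1.53e-05, 4.76e-11 and 1.86e-07. Exo1, the exonuclease that resects break ends and also serves mismatch repair, had the largest difference of all members from DBS. Its tumours read 834, 961 and 1247 at the lowest, median and highest, its GNPC samples 263, 352 and 385, and its DBS samples 44.3, 68.1, 65.5 and 69.5. Again the groups were apart. Exo1 was 2.9-fold higher in tumours than in GNPC, 12.7-fold higher than in DBS, and 4.39-fold higher in GNPC than in DBS, with limma adjusted p of 1.04e-05, 1.1e-10 and 1.16e-06.

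Blm, the helicase lost in Bloom syndrome, was called higher in the tumours against both tissues, by 1.10 ± 0.15 and 1.89 ± 0.14, and without GNPC sample 1 the first of these came to 0.997, under the 2-fold limit. Its GNPC samples read 396, 525 and 468 and its DBS samples 222, 242, 295 and 282, so that those groups did not overlap either, and the GNPC to DBS difference of 0.79 ± 0.16 passed the p threshold (limma adjusted p 0.00126) at less than 2-fold. Brca2, the mediator that carries the recombinase to single-stranded DNA, read 871, 918 and 1099.9 at the lowest, median and highest tumour, 525, 541 and 522 in GNPC and 396, 213, 440.4 and 478 in DBS. All tumours were above all normal samples, and the GNPC samples lay just above the DBS samples. Brca2 was called against DBS, at 2.54-fold, but was 1.78-fold above GNPC (limma adjusted p 0.00277), and GNPC and DBS did not differ by the test (1.42-fold, limma adjusted p 0.0631).

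The Fanconi genes act on interstrand crosslinks. Fancd2, the member that is ubiquitinated at a stalled fork, read 287, 354 and 394 at the lowest, median and highest tumour, 41.9, 132 and 131 in GNPC and 26.7, 57.1, 5.9 and 44.6 in DBS. The tumours stood apart, whereas GNPC sample 1 fell among the DBS samples. Fancd2 was 3.28-fold higher in tumours than in GNPC and 7.64-fold higher than in DBS, with limma adjusted p of 0.000904 and 9.84e-07. Among normal samples, only GNPC samples 2 and 3 lay above their array medians, so it passed the brightness filter through the tumours. The size of these folds depends on the constant added before the log. Over the settings run, the log2 difference was 1.28 to 1.94 against GNPC and 2.09 to 3.69 against DBS. Both calls held for Fancd2. Its 2.33-fold difference between GNPC and DBS (limma adjusted p 0.0163) was lost without GNPC sample 2 (adjusted p 0.0829), without GNPC sample 3 (adjusted p 0.0826) and without DBS sample 3 (0.89). It was lost with the mean of the Fancd2 probe sets too, at 0.82. Fanca, of the core complex, averaged 391 ± 78 (SD, n = 6) in tumours, 234 ± 45.3 (n = 3) in GNPC and 119 ± 39.2 (n = 4) in DBS. It was called only against DBS, at 3.03-fold, and was 1.62-fold above GNPC with a limma adjusted p of 0.0164.

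Mre11a, Rad50 and Nbn form the complex that senses a break and recruits Atm, and they differed in size of change though not in direction. Mre11a, the nuclease, read 599.5, 699 and 773 at the lowest, median and highest tumour, 294, 326 and 347 in GNPC and 187, 186, 128 and 135 in DBS, with no overlap among the 3 groups. It was 2.09-fold higher in tumours than in GNPC and 4.05-fold higher than in DBS, with limma adjusted p of 5.68e-05 and 8.38e-09, and the first of these fell to 0.97, under the 2-fold limit, with a pseudocount of 64. Rad50, the coiled-coil ATPase, read 605, 732 and 867 at the lowest, median and highest tumour, 414, 416 and 417 in GNPC, and 342, 371, 373 and 392 in DBS. Its tumours were again above every normal sample, but by 1.71-fold and 1.92-fold, so it was not called. GNPC and DBS differed by only 0.16 ± 0.13 in Rad50 (limma adjusted p 0.341). Nbn, the adaptor, was 1.69-fold above GNPC and 2.08-fold above DBS in the tumours, and the call against DBS was lost without DBS sample 4, at 0.94. Bard1, which did not pass the brightness filter, read 34.3, 8.5, 66.1, 50.8, 54.5 and 56 in tumours 1 to 6, between 1.8 and 16.2 in GNPC and between 2.3 and 21.3 in DBS. Tumour 2 lay among the normal samples, and the others lay above them.

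**Figure D1:**
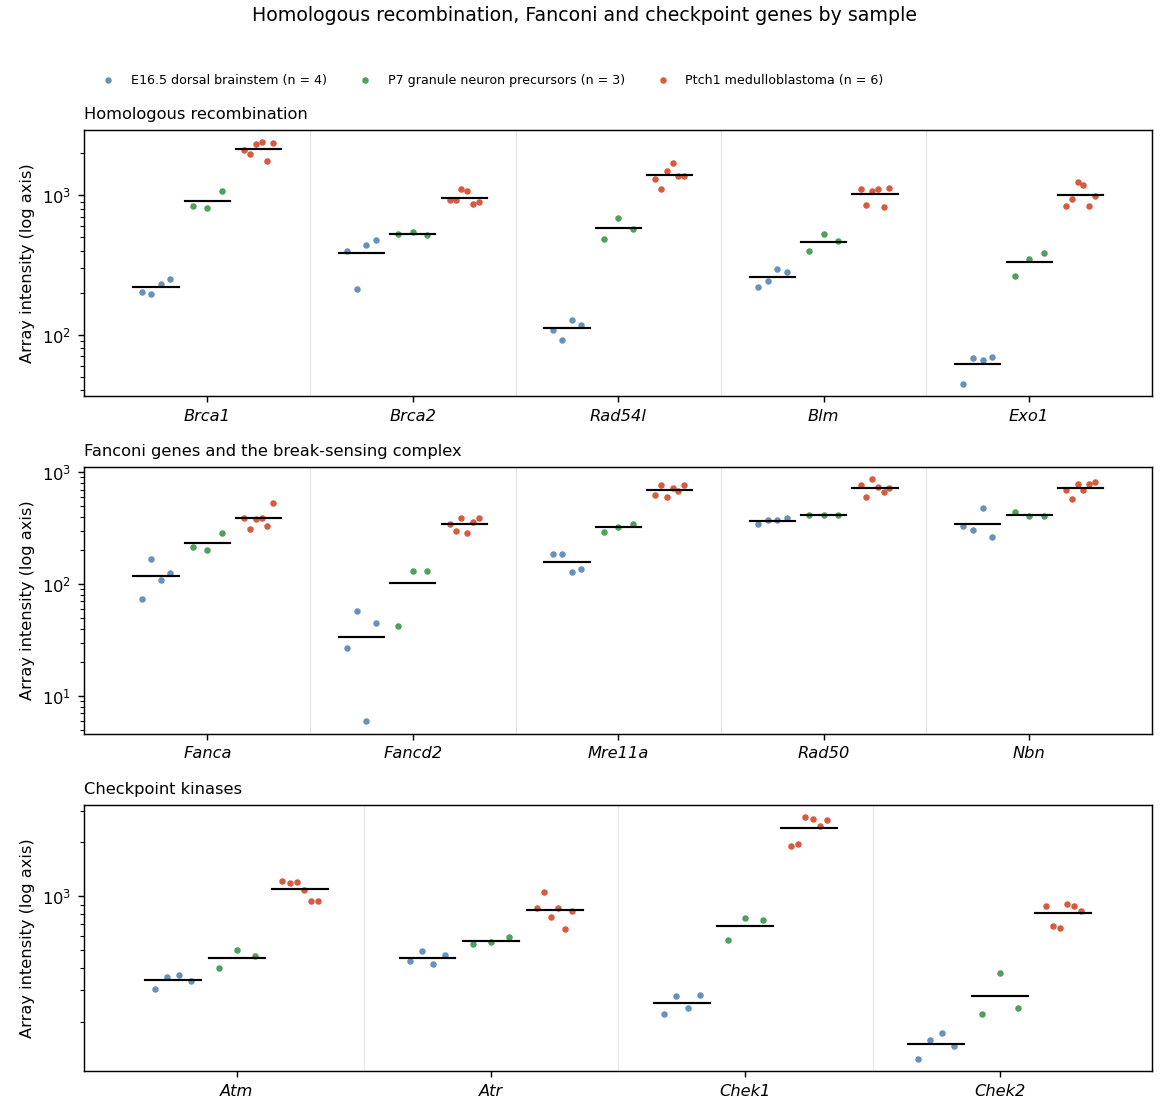
Intensity (log axis) of the recombination, Fanconi and checkpoint kinase genes in each of the 13 samples, with 1 point per sample and a bar at the group mean. Brca1, Rad54l and Exo1 step up from DBS to GNPC to tumours without overlap, and the Fancd2 values of GNPC and DBS overlap.

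The checkpoint kinases were higher in the tumours, with Chek1 and Chek2 ahead of the sensor kinases. Of the 4 genes, 3 were called higher in each tumour comparison and 1 in GNPC against DBS, with medians of 1.37, 1.96 and 0.59. Of all genes, 6.59% and 15.5% were called higher in the tumours against GNPC and DBS, and 8.73% in GNPC against DBS. On the brightest probe sets, all 4 kinases passed the p threshold as higher in the tumours against GNPC and against DBS. Of all genes, 22.8% and 34.9% did so.

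Chek1, the effector kinase downstream of Atr that guards replication forks, had the largest difference of all members between tumours and GNPC. It read 1903, 2561 and 2779.6 at the lowest, median and highest tumour, 569, 758 and 734 in GNPC and 222, 279, 239 and 281 in DBS. The 3 groups were apart. Chek1 was 3.43-fold higher in tumours than in GNPC, 8.81-fold higher than in DBS and 2.57-fold higher in GNPC than in DBS, with limma adjusted p of 1.06e-06, 1.22e-10 and 1.73e-05. Its other tested probe sets were called in both tumour comparisons as well, at 1.62 and 1.42 against GNPC and at 3.45 and 1.87 against DBS, while 1 of them was not called in GNPC against DBS, at 0.45. That one lay above the array median in every tumour but, among normal samples, in GNPC sample 3 alone. It thus passed the brightness filter through the tumours, and a call as lower in them was hardly possible. The other lay under the array median in every DBS sample, so its differences from DBS depend in size on the constant added before the log.

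Chek2, the effector downstream of Atm, read 669, 859.8 and 910.5 at the lowest, median and highest tumour, 221, 374 and 239.9 in GNPC and 124, 159, 174 and 147 in DBS. Each group lay above the next without overlap. Chek2 was 2.85-fold higher in tumours than in GNPC and 4.9-fold higher than in DBS, with limma adjusted p of 1.11e-05 and 1.1e-08, and the 1.72-fold difference between GNPC and DBS passed the p threshold alone (adjusted p 0.00399). Atr, which senses single-stranded DNA, averaged 839 ± 132 (SD, n = 6) in tumours, 564 ± 27 (n = 3) in GNPC and 455 ± 35 (n = 4) in DBS. Its tumours lay above every normal sample but by 1.46-fold and 1.8-fold, so it was not called.

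Atm, the kinase of double-strand breaks that is lost in ataxia telangiectasia, gave different answers from its probe sets. The brighter one read 936, 1135 and 1223 at the lowest, median and highest tumour, 398, 504 and 466 in GNPC and 303, 356, 363 and 339 in DBS. On it, all tumours were above all normal samples, 2.34-fold above GNPC and 3.1-fold above DBS, with limma adjusted p of 5.55e-06 and 1.85e-08. The other read 966.8, 190.7, 1271, 275.8, 522 and 966.9 in tumours 1 to 6, 502, 531.8 and 497 in GNPC and 296.9, 311.9, 288.5 and 319.9 in DBS. There, tumours 2 and 4 fell below every normal sample, tumours 1, 3 and 6 stood above them and tumour 5 lay within the GNPC range. Neither tumour difference was called on it (0.16 and 0.87). With the mean of both probe sets the tumour difference from GNPC was 0.69 and the call was lost.

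The mismatch repair genes moved less. Of the 3 tested, 0 were called in tumours against GNPC, where 2 passed the p threshold as higher on their brightest probe sets. In tumours against DBS 2 were called higher, and in GNPC against DBS 0. The shares of all genes called higher in these comparisons were 6.59%, 15.5% and 8.73%. Msh6, which recognises single mismatches, read 2760.1, 2939.9 and 3599 at the lowest, median and highest tumour, 1758, 1869 and 1997 in GNPC and 1244, 805, 1180.3 and 1072 in DBS. The 3 groups did not overlap. Msh6 was 1.64-fold higher in tumours than in GNPC and 2.88-fold higher than in DBS, with limma adjusted p of 0.000666 and 6.3e-08.

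Pms2, the endonuclease subunit that nicks the new strand, was 1.47-fold above GNPC and 2.24-fold above DBS in the tumours. The second of these was called, and it was lost with the mean of all Pms2 probe sets, at 0.52. Over the settings run, the log2 difference of Pms2 from GNPC ranged from 0.04 to 0.79, with limma adjusted p between 0.00223 and 0.836. Msh3, which recognises insertion and deletion loops, read 339.8, 608 and 703 at the lowest, median and highest tumour and 499.8, 612 and 586 in GNPC. These groups overlapped fully, and the difference was -0.02 ± 0.19 (limma adjusted p 0.949). Against its DBS samples of 354, 381, 466 and 446, Msh3 was 1.34-fold higher in tumours with a limma adjusted p of 0.0424, not called. Among the brightest probe sets of the members, that of Msh3 had the widest spread over the tumours, at an SD of 0.367 on the log2 scale.

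The end joining genes split. In tumours against DBS the Ku genes Xrcc5 and Xrcc6 were called higher and Trp53bp1 lower, while Prkdc, Xrcc4 and Lig4 were not called in any comparison. Of the 6 genes, 1 was called higher in tumours against GNPC, 2 higher and 1 lower in tumours against DBS, and 1 higher and 1 lower in GNPC against DBS. The medians were 0.24, 0.03 and 0.14. Among all genes, 6.59%, 15.5% and 8.73% were called higher in these comparisons and 14.2%, 20.9% and 9.68% lower.

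Xrcc5, which encodes the larger Ku subunit that caps a broken end, read 1005, 1209.8 and 1512 at the lowest, median and highest tumour, 549, 602 and 599.6 in GNPC and 187, 182, 268 and 238 in DBS. The groups were apart. Xrcc5 was 2.01-fold higher in tumours than in GNPC and 5.16-fold higher than in DBS, with limma adjusted p of 0.000109 and 2.19e-09, and it was 2.57-fold higher in GNPC than in DBS (limma adjusted p 1.84e-05). The first of these lies at the 2-fold limit: it came to 0.96 without GNPC sample 1, and to 0.99, 0.94 and 0.997 without tumours 1, 2 and 3, all below the limit. Xrcc6, which encodes the other Ku subunit, averaged 1534 ± 178 (SD, n = 6) in tumours, 873 ± 56.4 (n = 3) in GNPC and 539 ± 81.4 (n = 4) in DBS. Its 3 groups did not overlap, and it was 1.73-fold above GNPC, just under the limit, and 2.79-fold above DBS, with limma adjusted p of 0.000219 and 5.52e-08.

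Prkdc encodes the kinase that Ku recruits, yet it did not follow the Ku genes. It read 385, 462 and 579.5 at the lowest, median and highest tumour, 515, 516 and 524 in GNPC and 431, 383, 345 and 398 in DBS. The tumours overlapped with both normal groups, with differences of -0.18 ± 0.14 and 0.22 ± 0.12 (limma adjusted p 0.292 and 0.12). Xrcc4 and Lig4 form the ligase of this pathway. Xrcc4 averaged 374 ± 85.4 (SD, n = 6) in tumours, 379 ± 34.4 (n = 3) in GNPC and 414 ± 32.9 (n = 4) in DBS, with overlap throughout and limma adjusted p of 0.852, 0.381 and 0.649. Lig4 read 446, 503 and 800.5 at the lowest, median and highest tumour, 386, 353 and 375 in GNPC and 639, 671, 567 and 755 in DBS. GNPC was the lowest group in Lig4, below every other sample, and DBS was 1.73-fold above it, with a limma adjusted p of 0.0026. The tumours were 1.41-fold above GNPC in Lig4 (limma adjusted p 0.022) and overlapped with DBS.

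**Figure D2:**
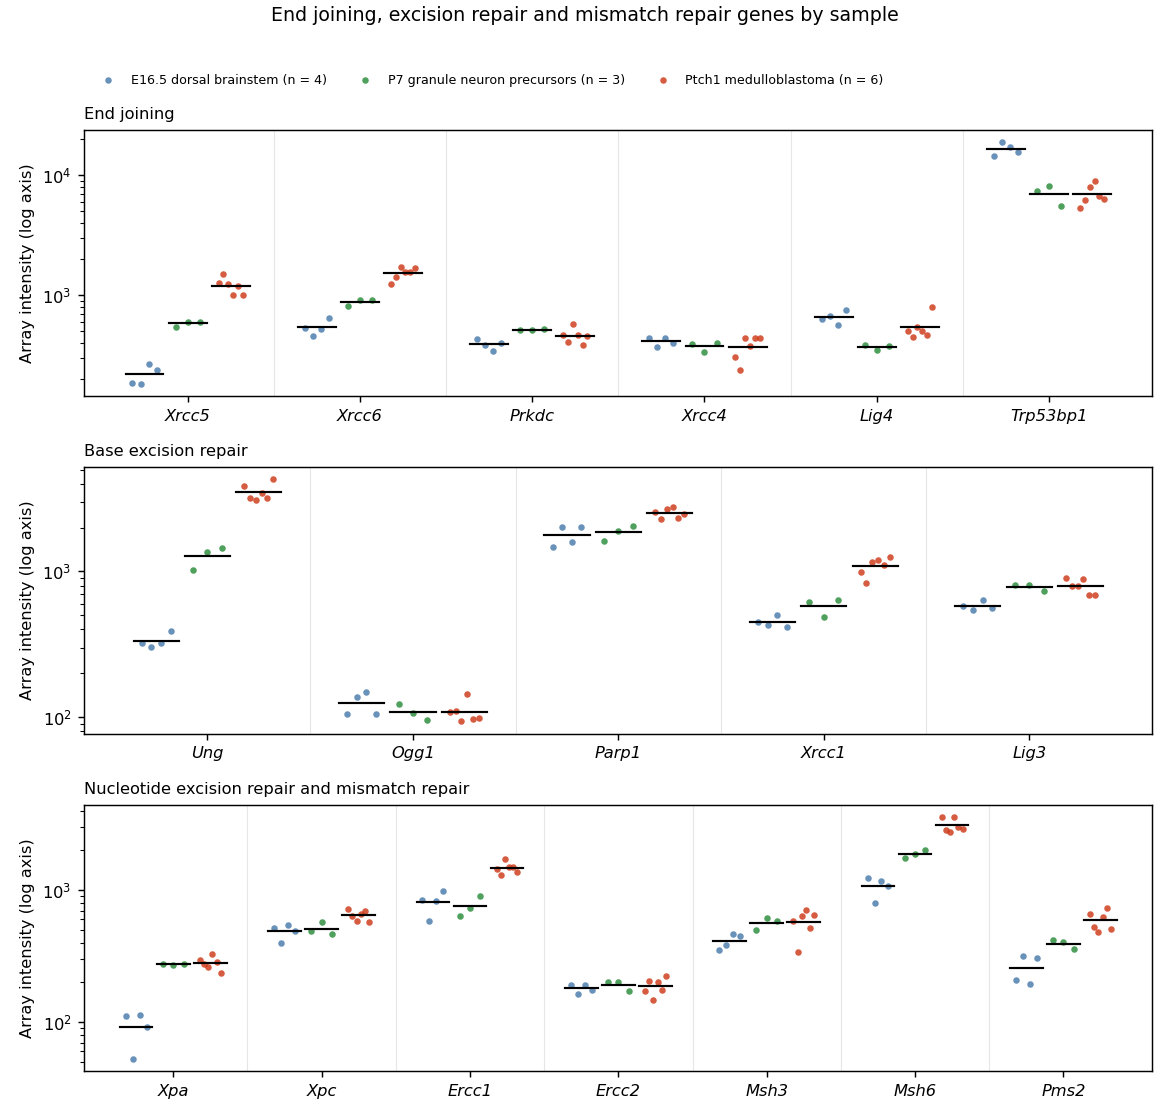
Intensity (log axis) of the mismatch repair, end joining and excision repair genes in each sample, with 1 point per sample and a bar at the group mean. Ung and the Ku genes Xrcc5 and Xrcc6 step up from DBS to tumours, Trp53bp1 is highest in DBS, and Ogg1, Ercc2 and Xrcc4 overlap in all groups.

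Trp53bp1, whose protein shields break ends from resection and favours end joining over recombination, was the only member called lower in any comparison. Its brightest probe set read 5376, 6582 and 8973 at the lowest, median and highest tumour, 7358, 8069 and 5543 in GNPC, and 14413, 18929, 17249.7 and 15512 in DBS. Every DBS sample lay above every other sample, while tumours and GNPC overlapped. DBS was 2.4-fold higher than the tumours and 2.38-fold higher than GNPC, with limma adjusted p of 1.52e-06 and 3.96e-05, and the tumours differed from GNPC by -0.01 ± 0.16 (limma adjusted p 0.954).

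The probe sets of Trp53bp1 did not give 1 picture. Both of the next brightest followed the first in tumours against DBS, at -1.28 and -1.92. They were also lower in tumours than in GNPC, by a difference of -0.58 and -0.64 that passed the p threshold without being called, where the first gave -0.01. A dimmer one read 207.5, 334.1, 295.9, 447.1, 253.5 and 220.5 in tumours 1 to 6, between 1.4 and 2.3 in GNPC, and 1.6, 2.4, 15.7 and 0.6 in DBS. It was thus bright in every tumour and near the bottom of the scale in every normal sample. Another gave the same pattern, at 227.4, 321.9, 300.3, 394.5, 239.2 and 196.3 in tumours 1 to 6 and at most 15.7 in GNPC and 30.9 in DBS, but the annotation lists the same source sequence for both, so they are not separate evidence. Both lay above the array median in the tumours alone, and so passed the brightness filter only through the tumours. A call as lower in the tumours was thus hardly possible for them. The size of their differences depends on the constant added before the log. Both were called higher in the tumours, at 3.92 and 3.38 against GNPC and at 3.75 and 3.52 against DBS, while the dimmest, at 0.27 and 0.58, was not called. What these probe sets detect was not tested. With the mean of all its probe sets, Trp53bp1 would read as higher in the tumours, by 1.06 against GNPC and 0.56 against DBS, and its call in GNPC against DBS would be lost, at -0.49.

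**Figure D3:**
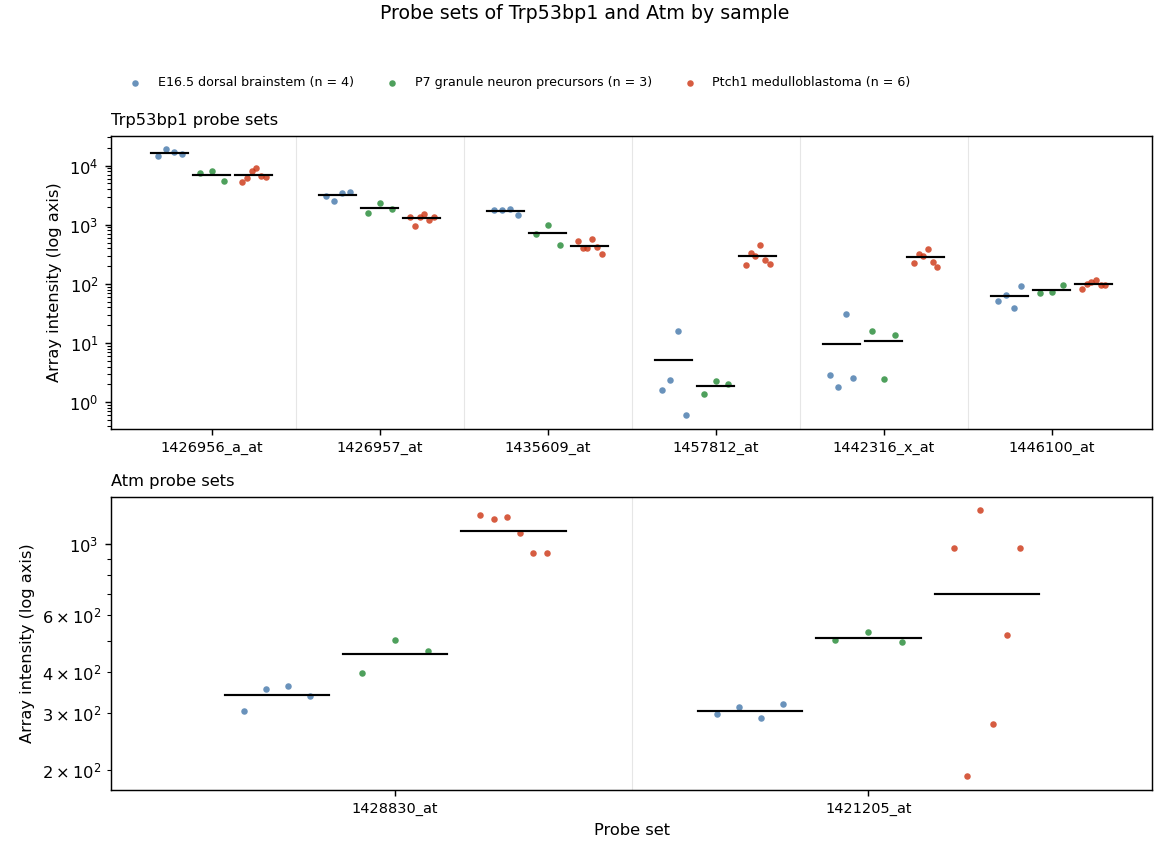
Intensity (log axis) in each sample of every probe set of Trp53bp1 and Atm that passed the filter, with 1 point per sample and a bar at the group mean. The 3 brightest Trp53bp1 probe sets are highest in DBS, 2 dimmer ones are bright in the 6 tumours alone, and the Atm probe sets differ in tumours 2 and 4.

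Differences between probe sets of 1 gene were not limited to Trp53bp1 and Atm. Of the 80 member probe sets, 60 passed the filter, and 15 members had several. The call differed between probe sets for Atm, Brca1 and Trp53bp1 in tumours against GNPC, and for these and Atr, Ercc1, Pms2 and Xpa in tumours against DBS. In GNPC against DBS it differed for Brca1, Chek1, Fancd2, Trp53bp1 and Xpa. The direction of called probe sets was opposite only in Trp53bp1, in tumours against DBS.

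Excision repair ranged from Ung, called higher in all 3 comparisons, to genes such as Ogg1 and Ercc2 that were called in none. Of 9 genes, 1 was called higher in tumours against GNPC, 3 in tumours against DBS and 2 in GNPC against DBS, and 0 were called lower. Among all genes, 6.59%, 15.5% and 8.73% were called higher, and these small counts were not tested against those shares. The medians of the 9 genes, 0.33, 0.50 and 0.08, were well under those of the recombination genes.

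Ung, the glycosylase that removes uracil from DNA, read 3084, 3324 and 4285 at the lowest, median and highest tumour. It read 1022, 1349.6 and 1441 in GNPC and 325, 303, 321 and 392 in DBS. No groups overlapped. Ung was 2.74-fold higher in tumours than in GNPC, 9.95-fold higher than in DBS and 3.63-fold higher in GNPC than in DBS, with limma adjusted p of 2.28e-06, 3.34e-11 and 4.49e-07. Ogg1, the glycosylase of oxidised guanine, stood in contrast at 109 ± 19 (SD, n = 6) in tumours, 108 ± 13.4 (n = 3) in GNPC and 124 ± 22.7 (n = 4) in DBS. Its groups overlapped, and its differences were 0.00 ± 0.19 in size against GNPC and -0.17 ± 0.17 against DBS (limma adjusted p 0.992 and 0.393), at intensities close to the array medians.

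Single-strand break repair follows base removal. Xrcc1, its scaffold, averaged 1087 ± 153 (SD, n = 6) in tumours, 580.0 ± 84 (n = 3) in GNPC and 449 ± 37.6 (n = 4) in DBS. All tumours lay above all normal samples, 1.85-fold above GNPC and, as called, 2.35-fold above DBS, with limma adjusted p of 0.000171 and 8.49e-07. Lig3, the ligase bound to Xrcc1, averaged 792 ± 91.3 (n = 6), 787 ± 43 (n = 3) and 579 ± 40 (n = 4) in the same order. It did not share the Xrcc1 difference between tumours and GNPC: its own was 0.00 ± 0.12 (limma adjusted p 0.994), and it was 1.35-fold above DBS in both. Parp1, the sensor of nicks, averaged 2509 ± 186 (n = 6) in tumours, 1853 ± 224 (n = 3) in GNPC and 1779.9 ± 281 (n = 4) in DBS. Its tumours were higher by 1.35-fold and 1.42-fold (limma adjusted p 0.009 and 0.00107), not called. Among the brightest probe sets of the members, that of Parp1 varied least over the tumours, at an SD of 0.107.

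Nucleotide excision repair removes bulky lesions such as those of ultraviolet light. Xpa, which verifies the lesion, read 238, 280.0 and 327 at the lowest, median and highest tumour, 273, 270.3 and 277 in GNPC and 111, 52.8, 114 and 92.5 in DBS. Tumours and GNPC overlapped, and DBS lay below both. Xpa was 2.77-fold higher in tumours and 2.71-fold higher in GNPC than in DBS, with limma adjusted p of 2.76e-06 and 7.21e-05, whereas its dimmer probe set gave -0.17 and -0.22 for the same comparisons and the mean of both lost the calls.

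Ercc1, a subunit of the nuclease that cuts beside the lesion, read 1306, 1466 and 1706 at the lowest, median and highest tumour, 636, 734 and 907 in GNPC and 836, 585, 821 and 988 in DBS. The normal groups overlapped and all tumours lay above them. The 1.93-fold difference from GNPC and the 1.83-fold difference from DBS passed the p threshold (limma adjusted p 0.000196 and 7.06e-05) without being called. Ercc2, the helicase of the repair and transcription factor TFIIH, averaged 187 ± 27.4 (SD, n = 6) in tumours, 191 ± 16.2 (n = 3) in GNPC and 180.2 ± 13.9 (n = 4) in DBS, with overlap throughout and limma adjusted p of 0.857, 0.808 and 0.733. Xpc, the lesion sensor, was 1.31-fold higher in tumours than in DBS (limma adjusted p 0.00874), and its difference of 0.33 ± 0.13 from GNPC had a limma adjusted p of 0.0501.

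**Figure D4:**
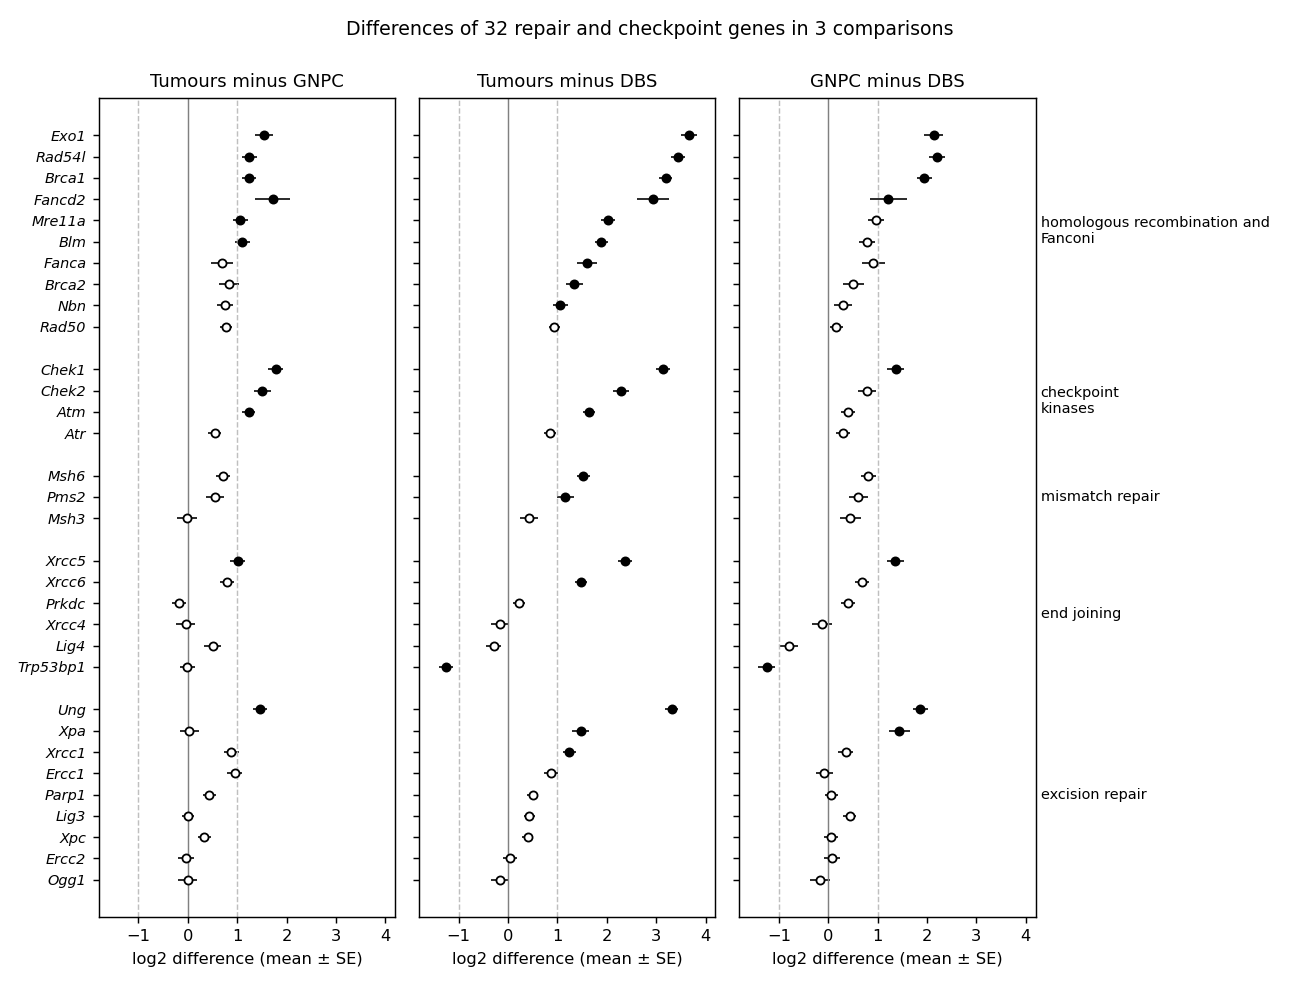
Log2 difference with its standard error for the 32 tested members in the 3 comparisons, grouped by pathway, with filled points for called genes and the 2-fold limit as dashed lines. Recombination genes and checkpoint kinases lie to the right, and Trp53bp1 is the only called member to the left.

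Other genes of the same pathways were called higher in the tumours more often than lower. Among all genes, 6.59% were called higher in tumours against GNPC, 15.5% in tumours against DBS and 8.73% in GNPC against DBS. Of 28 other recombination and Fanconi genes, 8 were called higher in tumours against GNPC, 19 in tumours against DBS and 10 in GNPC against DBS, and 0 lower. Rad51ap1, a cofactor of the recombinase, differed by 1.97, 4.29 and 2.32, and Rad54b, a relative of Rad54l, by 1.56, 3.30 and 1.74. Rad54b averaged 349 in tumours, 106.5 in GNPC and 21.2 in DBS, and the GNPC and DBS means lay under the medians of those arrays. It thus passed the brightness filter through the tumours, and the size of its differences depends on the constant added before the log. Of 18 other checkpoint genes, 7, 11 and 9 were called higher and 0 lower, among them Wee1, the kinase that holds back mitosis, by 1.25 in tumours against GNPC, Clspn, the Chek1 adaptor, by 3.41 in tumours against DBS, and Cdc25c, the mitotic phosphatase, by 3.60 there. All of these were called in the limma fit.

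The wider mismatch repair list held more calls than its 3 members. The counts in this paragraph stand beside 6.59%, 15.5% and 8.73% of all genes called higher in the 3 comparisons, and were not tested against them. Of 11 other genes, 5, 10 and 5 were called higher in the 3 comparisons and 0 lower. Those named by the largest difference belong to the replication machinery that mismatch repair shares: Rfc4 and Rfc5, subunits of the clamp loader, Rpa3, of the single-strand binding complex, and Pcna, the sliding clamp. Rfc4 was 2.58-fold higher in tumours than in GNPC and 10.1-fold higher than in DBS. Of 7 other end joining genes, 2, 5 and 3 were called higher and 0 lower, with Aplf, an end joining scaffold, at 1.46, 2.69 and 1.23. Excision repair again held the mixed list: of 28 other genes, 4 were called higher and 1 lower in tumours against GNPC, 11 higher and 1 lower in tumours against DBS, and 2 higher and 0 lower in GNPC against DBS. Neil3, a glycosylase, was 13.9-fold higher in tumours than in DBS. It averaged only 25.2 ± 16.3 (SD) in DBS, so the size of this fold depends on the constant added before the log. Mpg, the glycosylase of alkylated bases, was 2.65-fold lower in tumours than in GNPC and 3.83-fold lower than in DBS, with limma adjusted p of 0.000109 and 5.49e-07.

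Proliferation genes were called higher across the same comparisons, where 6.59%, 15.5% and 8.73% of all genes were. Of 34 proliferation genes, 28 were called higher in tumours against GNPC, 33 in tumours against DBS and 31 in GNPC against DBS, and 0 lower, with medians of 1.21, 3.64 and 2.25. Their summed intensity was 143425.7 to 193253.9 in the tumours, 62343.3 to 82277.2 in GNPC and 15225.4 to 18709.6 in DBS, without overlap. Mki67, a marker of cycling cells, averaged 12413 ± 1276 (SD, n = 6), 6112 ± 1282 (n = 3) and 931 ± 152 (n = 4) in that order, and Top2a, which untangles replicated chromosomes, was 2.2-fold higher in tumours than in GNPC and 13.69-fold higher than in DBS. Mcm2, of the replicative helicase, differed by 2.09, 2.70 and 0.61 in tumours against GNPC, tumours against DBS and GNPC against DBS, of which the third did not pass the test (limma adjusted p 0.081). Pcna differed by 0.73, 2.57 and 1.84, of which the first passed the p threshold (limma adjusted p 0.0103) at less than 2-fold. The part of proliferation in the repair gene differences was not tested.

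**Figure D5:**
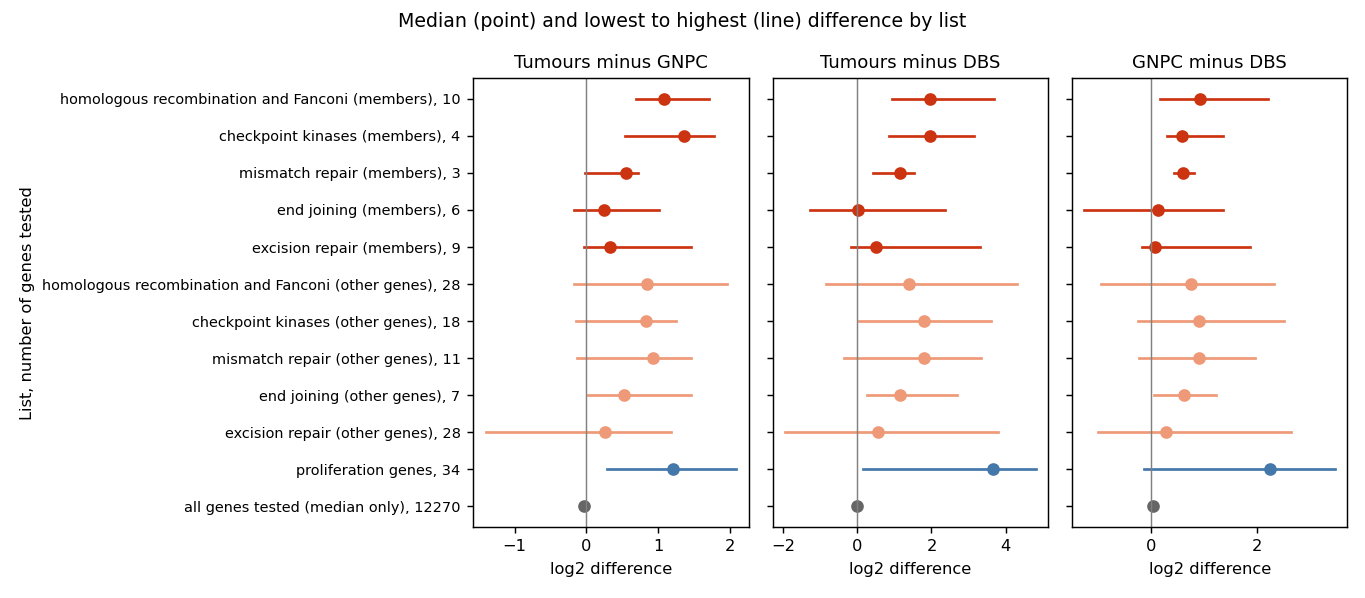
Median log2 difference (point) and the range from the lowest to the highest gene (line) of each list in the 3 comparisons, for the member pathways, the other genes of those pathways and the proliferation genes, with the median of all 12270 tested genes. The recombination and checkpoint medians of 1.08 and 1.37 in tumours against GNPC lie beside the proliferation median of 1.21, and in tumours against DBS the proliferation median of 3.64 lies above those of all repair lists.

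Other cell types and RNA quality moved with the groups as well. Neuron markers, 8 in number, averaged 13.36 to 13.52 on the log2 scale in DBS, 12.40 to 12.65 in GNPC and 9.66 to 11.11 in the tumours, none of them at 0. Their summed intensity was 89466.6 to 100501.3, 54148.2 to 58730.9 and 16693.4 to 31499.0 in that order. Rbfox3, a neuronal splicing factor, averaged 7713 in DBS, 10960.5 in GNPC and 8867 in the tumours, and Snap25, of the synaptic fusion machinery, 11114, 9335 and 4501. Of the 8 neuron markers, 5 were called lower in tumours against GNPC and 6 in tumours against DBS. Among all genes, 14.2% and 20.9% were called lower in these comparisons, and 6.59% and 15.5% higher. Of 8 microglia and macrophage markers, 6 were called higher in the tumours against each normal tissue. Markers of other cell types were lower in tumours than in GNPC: 6 of 6 for Purkinje cells, 5 of 6 for meninges and fibroblasts, 5 of 8 for astrocytes and Bergmann glia, 4 of 7 for oligodendrocytes, 3 of 4 for cerebellar interneurons and 3 of 5 for endothelium were called so, and none was called higher. The log2 ratio of 3′ to 5′ control signal, a measure of RNA decay, averaged 1.39 in the tumours, 1.16 in GNPC and 1.75 in DBS, where DBS sample 2 was highest at 2.43. The tumours and GNPC differed by 0.235 (exact 2-sided permutation p 0.0119, the smallest this design allows, 0.0357 after adjustment over 3 comparisons). For tumours against DBS and GNPC against DBS the exact permutation p was 0.0952 and 0.0571. The part of these differences in the results was not tested.

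The mean log2 intensity over all tested members was 9.67 to 9.90 in the 6 tumours, 8.97 to 9.12 in GNPC and 8.37 to 8.52 in DBS, with no overlap between groups. The median SD among tumours was 0.196 for the members, against 0.266 for all tested genes. On the brightest probe set of each member, Msh3, Xrcc4 and Lig4 varied most, at 0.367, 0.348 and 0.296. The Msh3 value lies at the 68.6th percentile of all genes. The dimmer Atm probe set varied more, at an SD of 1.06 among the tumours.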

How the data were processed

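Total RNA of 13 mouse tissue samples was labelled in the Two-Cycle protocol from 100 ng and hybridised to Affymetrix arrays, per the labels' protocols. The deposited intensity values are linear MAS5 signals, 1 per probe set, per the submitters' processing notes; their version and settings are not given in the sources used here. Every array's trimmed mean (2% at each end) was 500. Gene names are those of the platform annotation, in which 34945 probe sets had 1 symbol, 932 several and 9160 none.

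A probe set was kept if it lay above its array's median in at least 3 of the 13 arrays, and a gene was represented by its brightest kept probe set. Values were taken as log2(intensity + 18), where 18 is the 20th percentile of all values. Groups came from the labels, and 1 limma fit (version 3.58.1, R 4.3.3, lmFit and eBayes with an intensity trend) gave the 3 comparisons, with Benjamini-Hochberg adjustment over 12270 genes. The script was tested on simulated data. The members, the other pathway lists and the marker lists were chosen with earlier results of these data known. Named genes are all 33 members and, of the other genes of a pathway, up to 2 called genes with the largest difference in each comparison; Mki67, Top2a, Mcm2 and Pcna stand for proliferation. The probe sets of a member described singly were chosen after their values were seen. Promoters are those of RefSeq. The alternatives tried were the pseudocount, filter, scaling, probe set rule, samples in the fit, spread, array weights, fold minimum and leaving out each sample. Tumours of another genotype were not analysed here.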

Additional observations from a re-analysis of the deposited data

Results flagged for a closer look

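Each member was checked for a sample far from the rest of its group in the tumours and in DBS, 66 groups of values in all with the 3′ to 5′ ratio, by Dixon's test at 95%, by which chance alone marks about 1 in 20. Exo1 read 44.3 in DBS sample 1, and the nearest other DBS sample read 65.5. Lig4 read 800.5 in tumour 6, with the next tumour at 541.6. Fanca stood apart in the same tumour, at 535.1 against 392.3. Ogg1 read 145 in tumour 4, with the next at 109.5. The log2 ratio of 3′ to 5′ control signal was 1.59 in tumour 1, above the next tumour at 1.39.

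A pair of Trp53bp1 probe sets that do not represent the gene in the comparisons was bright in the tumours alone. The first had a mean of 293 in the 6 tumours, and its highest normal sample read 15.7. The second had a mean of 279.9, with a highest normal sample of 30.9.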

How the results depend on the processing

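The number of members called was 11 in tumours against GNPC, 20 in tumours against DBS and 9 in GNPC against DBS. With no fold minimum, 23 members passed in tumours against GNPC and 20 in GNPC against DBS, and 27 in tumours against DBS. Requiring a probe set to lie above the array median in every array gave 5 in GNPC against DBS, with 9087 genes tested. Leaving out 1 sample at a time gave 9 to 12, 19 to 20 and 8 to 11 members. Under the other settings run (pseudocounts of 1 and 64, no filter, median scaling, quantile normalization, the mean of probe sets, no shared probe sets, the compared groups alone, no trend, array weights) the counts stayed within 1.5 times. Only Trp53bp1 turned direction with a call: with the mean of its probe sets it came to 1.06 in tumours against GNPC and 0.56 in tumours against DBS, since 2 of its probe sets were bright in the tumours alone. No paired analysis was run, because by the study design each sample came from its own mouse and the labels pair no samples. Dim members such as Ogg1 and Bard1 sit near the array median or under it, where small differences are not detectable. Without the brightness filter Bard1 was tested too, as the only added member. The members called then came to 12 in tumours against GNPC and 21 in tumours against DBS. No other member changed its call in that run, so the added call is Bard1, higher in the tumours. All its values lay under the array medians, so the size of its difference depends on the constant added before the log.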
